A study of Mus musculus with 12 samples.

Results

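Chemokines of the CC class and their receptors were followed in the skin of AhR-deficient and AhR-heterozygous mice with and without imiquimod (IMQ). The 10 genes were 8 ligands (*Ccl2*, *Ccl3*, *Ccl4*, *Ccl5*, *Ccl7*, *Ccl17*, *Ccl20* and *Ccl22*) and 2 receptors (*Ccr1* and *Ccr2*), chosen with earlier results of these data known. All 10 were measured among 18193 genes in all. They were read by 14 of the array's 45101 probe sets, each annotated to the 1 gene alone. Where a gene had several sets, the brightest on average stood for it. Levels of different genes come from different probes and are not compared with each other.

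The 12 arrays measured total RNA from full-thickness skin, 3 for each of 4 groups. The groups were *Ahr*-/- mice 2 days into IMQ, *Ahr*+/- mice 2 days into IMQ, untreated *Ahr*-/- mice and untreated *Ahr*+/- mice. IMQ was given daily to shaved back skin as Aldara cream, 30 mg with 5% imiquimod in the general protocol. The untreated groups had no cream without the drug, so imiquimod, the cream and its application cannot be told apart. *Ahr*-/- mice lack AhR in every cell, and their *Ahr*+/- littermates, which carry 1 functional allele, took the place of wild-type mice. Age and sex are not given in the sources used here. The arrays of a group are labelled biological replicates.

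CC chemokines are small secreted proteins, named for a pair of adjacent cysteines, that guide leukocytes through G protein-coupled receptors. In inflamed skin, keratinocytes, resident myeloid cells and the cells that arrive from blood all release them, and several ligands share a receptor. In psoriasis and in its IMQ model the axis best known is that of CCL20, which draws CCR6-bearing, IL-17-producing T cells to the epidermis, while CCR2 ligands draw monocytes and CCR1 ligands draw myeloid cells and T cells.

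The windows around the transcription starts of 6 of the 10 genes could be read from RefSeq (GRCm38.p6), 250 bases before the start and 50 after it; *Ccl2*, *Ccl4*, *Ccl5* and *Ccl7* were not matched. They were searched on both strands for the AhR core element GCGTG, for the AP-1 element TGANTCA and for the kappa B consensus, which NF-kappa B binds. The windows of *Ccl20*, *Ccr1* and *Ccl3* are shown because *Ccl3* and *Ccr1* were called between the genotypes on day 2 and *Ccl20* had the largest response of the 10 genes in *Ahr*+/- skin. They are given 5′ to 3′ on the gene's strand with matches to the AhR core or kappa B in capitals; *Ccl20* lies at chr1:83116516-83116815 (plus strand), *Ccr1* at chr9:123968643-123968942 (minus strand) and *Ccl3* at chr11:83649329-83649628 (minus strand).
Ccl20: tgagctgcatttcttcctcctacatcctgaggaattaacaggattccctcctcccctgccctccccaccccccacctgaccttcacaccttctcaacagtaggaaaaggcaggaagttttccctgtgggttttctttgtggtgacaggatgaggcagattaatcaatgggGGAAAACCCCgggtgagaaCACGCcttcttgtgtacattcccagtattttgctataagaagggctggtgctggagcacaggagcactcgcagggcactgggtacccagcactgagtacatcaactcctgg
Ccr1: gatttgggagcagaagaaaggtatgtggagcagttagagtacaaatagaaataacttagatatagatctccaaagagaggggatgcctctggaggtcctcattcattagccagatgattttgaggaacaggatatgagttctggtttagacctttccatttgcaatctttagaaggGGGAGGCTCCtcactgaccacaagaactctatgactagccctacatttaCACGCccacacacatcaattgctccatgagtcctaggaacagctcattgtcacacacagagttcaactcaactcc
Ccl3: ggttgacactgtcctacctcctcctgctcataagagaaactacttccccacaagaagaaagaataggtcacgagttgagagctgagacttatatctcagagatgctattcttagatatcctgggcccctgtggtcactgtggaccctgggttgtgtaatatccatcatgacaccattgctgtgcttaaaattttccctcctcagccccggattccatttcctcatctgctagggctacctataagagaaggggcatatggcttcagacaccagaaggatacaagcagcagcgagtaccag

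The *Ccl20* window held 1 kappa B match, whose first base lay at -80 from the start, and 1 AhR core match, at -61, both on the opposite strand. The *Ccr1* window also held 1 of each, the kappa B match on the gene's strand at -74 and the AhR core on the opposite strand at -25. In the *Ccl3* window neither was found. *Ccl17* and *Ccl22* each held 1 AhR core match and *Ccr2* none, and no window of the 6 held the AP-1 letters. Over 32851 promoter windows of the same length, 32.4% held the AhR core, 7.81% the AP-1 element and 8.46% the kappa B consensus. The matches do not overlap each other, and a match describes the letters alone.

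After IMQ the signals of *Ccl2*, *Ccl3*, *Ccl5* and *Ccl20* were higher in both genotypes, and those of *Ccl4* and *Ccr1* in *Ahr*-/- skin. The responses of *Ccl3* and *Ccl4* differed between the genotypes by the test of that difference, and those of the other 8 genes, *Ccr1* among them, did not pass it; of all genes 0.539% passed upward and 0.786% downward. Calls needed at least a 1.5-fold difference and a limma p-value that stayed under 0.05 once adjusted for all 18193 genes. In *Ahr*-/- skin 6 of the 10 genes were called higher and 1 lower after IMQ, where 10.6% of all genes were called higher and 12.1% lower. In *Ahr*+/- skin 4 were called higher and 0 lower, where 5.22% of all genes were called higher and 3.83% lower. Of the 6 others in *Ahr*+/- skin, *Ccl7* had an unadjusted p under 0.05, and a rank product test called 2 of the 10 there (1.27% of all genes) and 3 of the 10 in *Ahr*-/- skin (1.95% of all genes). In *Ahr*-/- skin all treated arrays lay above all untreated ones for 7 of the 10 genes (21.7% of all genes). They lay wholly below for 2 (21.1% of all genes). In *Ahr*+/- skin 4 genes lay wholly above (15.4% of all genes) and 0 wholly below (14.4% of all genes). The median log2 difference of the 10 genes was 1.53 in *Ahr*-/- skin and 0.68 in *Ahr*+/- skin, and over all genes it was 0.07 and -0.01. Because the 10 genes were chosen with earlier results of these data known, the values over all genes give a scale and no test of the list.

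**Figure D1:**
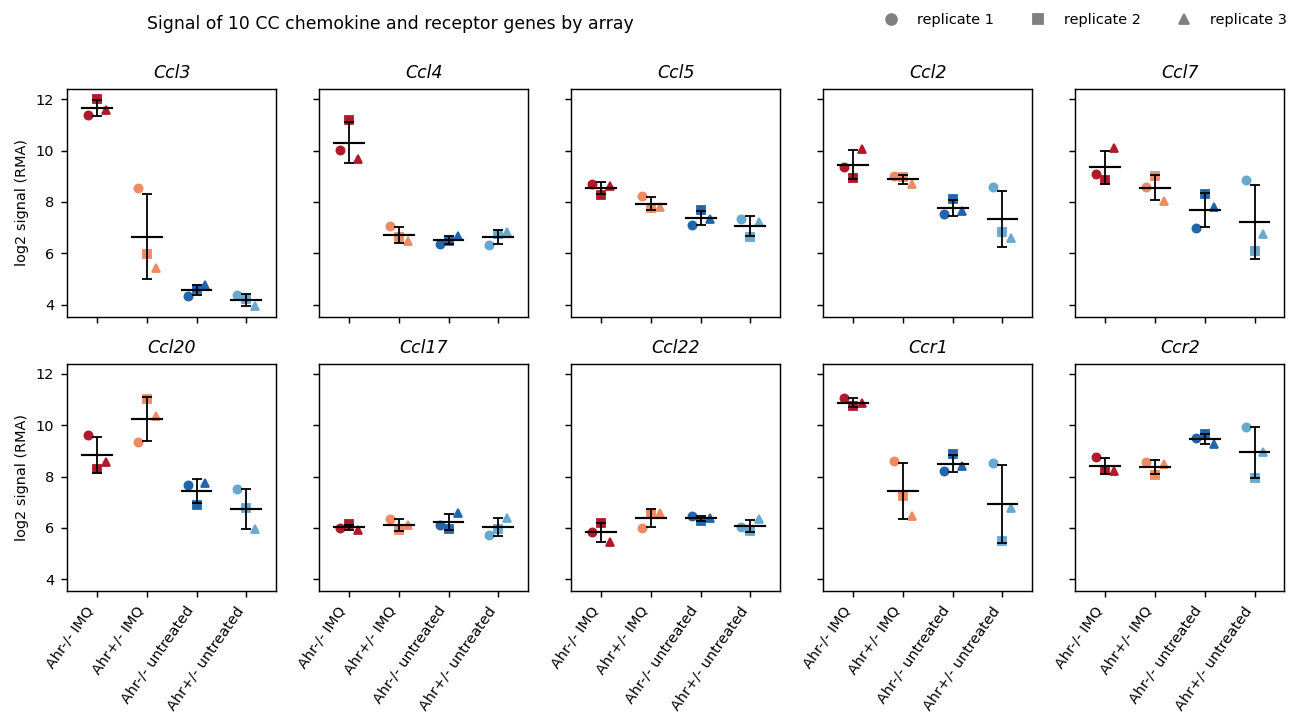
Log2 RMA signal (y axis) of each gene on the 12 arrays, by group (x axis); points are arrays, with a shape for each replicate number, and bars are the group mean ± SD (n = 3). *Ccl3*, *Ccl4* and *Ccr1* are higher on all 3 arrays of IMQ-treated *Ahr*-/- skin than on any other array, and *Ccl20* has its highest value, 11.04, in IMQ-treated *Ahr*+/- skin.

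The *Ahr* probe sets were not lower throughout the arrays labelled *Ahr*-/-. The brighter read 9.07 to 9.87 in IMQ-treated *Ahr*-/- skin and 9.79 to 10.27 in IMQ-treated *Ahr*+/- skin, and without treatment 11.29 to 11.44 in *Ahr*-/- skin and 10.11 to 11.30 in *Ahr*+/- skin. The dimmer read 6.0 to 6.12 in IMQ-treated *Ahr*-/- skin and 5.56 to 5.99 in IMQ-treated *Ahr*+/- skin, without overlap, and 5.91 to 6.19 in untreated *Ahr*-/- and 5.81 to 6.31 in untreated *Ahr*+/- skin. Whether these probes fall in the deleted stretch was not worked out, so they do not check the genotype labels, on which every comparison of genotypes here rests. The *Gapdh* control sets give a log2 3′ over 5′ difference that grows as RNA breaks down, and it was 1.17 and 1.52 on *Ahr*-/- IMQ replicates 1 and 2 and 0.14 to 0.53 on the other 10 arrays. Growth phase hair follicle genes averaged 12.60 on untreated *Ahr*+/- replicate 2, against 8.22 and 8.68 on the other arrays of that group. Keratinocyte genes were high on every array (12.01 to 13.60, mean of 7 genes). Whole skin holds many cell types, and fewer cells of a type and less RNA per cell cannot be told apart.

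*Ccl3*, *Ccl4* and *Ccl5* were all called higher after IMQ in *Ahr*-/- skin, and *Ccl3* and *Ccl5* in *Ahr*+/- skin too. On day 2, *Ccl3* and *Ccl4* were higher in *Ahr*-/- than in *Ahr*+/- skin.

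*Ccl3* encodes MIP-1 alpha, a ligand of CCR1 made by activated myeloid cells. Its log2 signals were 11.40, 11.99 and 11.57 in IMQ-treated *Ahr*-/- skin and 8.54, 5.98 and 5.43 in IMQ-treated *Ahr*+/- skin (replicates 1, 2 and 3). Without treatment they were 4.36, 4.60 and 4.76 in *Ahr*-/- skin and 4.39, 4.24 and 3.94 in *Ahr*+/- skin. The treated groups overlapped neither each other nor the untreated groups, and *Ahr*+/- IMQ replicate 1 stood well above the other arrays of its group.

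The log2 response of *Ccl3* to IMQ was 7.08 (standard error, SE, 0.57, adjusted p = 5.51e-06, 135-fold) in *Ahr*-/- skin and 2.46 (SE 0.57, adjusted p = 0.0174, 5.51-fold) in *Ahr*+/- skin. The responses differed by 4.62 (95% interval 2.86 to 6.37, adjusted p = 0.0207). On day 2 *Ccl3* was 5.0 higher in *Ahr*-/- than in *Ahr*+/- skin (adjusted p = 0.000714, 32.1-fold). It was called in the *Ahr*-/- response under each of 17 alternatives of the limma fit. The call of the day 2 difference was lost with the *Gapdh* difference as a covariate (5.05, adjusted p = 0.0643) and with *Ahr*-/- IMQ replicate 3 as the sole array of its group (4.92, adjusted p = 0.0846), a fit in which the other groups alone supply the spread and the lone array is assumed to vary like them. The call of the difference of responses was lost in these fits too (adjusted p = 0.253 and 0.241) and when replicate 1 or 3 of untreated *Ahr*-/- skin or replicate 2 of either treated group was dropped (adjusted p = 0.0565 to 0.0731). Without *Ahr*+/- IMQ replicate 1 the *Ahr*+/- response of *Ccl3* was 1.52 (adjusted p = 0.0034) and the day 2 difference 5.95, and dropping *Ahr*+/- untreated replicate 3 ended the *Ahr*+/- call (2.34, adjusted p = 0.0612), as did fitting the *Ahr*+/- arrays by themselves (adjusted p = 0.103).

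*Ccl4* encodes MIP-1 beta, a chemokine of activated myeloid and T cells whose gene neighbours *Ccl3* on chromosome 11; the RefSeq spans of the genes overlap, and each had a probe set of its own. Signals of *Ccl4* were 10.04, 11.20 and 9.69 in IMQ-treated *Ahr*-/- skin and 7.08, 6.63 and 6.48 in IMQ-treated *Ahr*+/- skin. Untreated arrays gave 6.35, 6.50 and 6.68 in *Ahr*-/- skin and 6.34, 6.75 and 6.82 in *Ahr*+/- skin. The 3 arrays of IMQ-treated *Ahr*-/- skin thus stood alone, and the other 9 lay within 6.34 and 7.08.

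After IMQ *Ccl4* was 3.80 higher in *Ahr*-/- skin (SE 0.31, adjusted p = 6.47e-06, 13.9-fold), and its difference in *Ahr*+/- skin was 0.09 (95% interval -0.59 to 0.77, adjusted p = 0.9). The difference of responses was 3.7 (95% interval 2.74 to 4.67, adjusted p = 0.00291), and on day 2 *Ahr*-/- skin exceeded *Ahr*+/- skin by 3.58 (adjusted p = 8.37e-05, 12-fold). The 3 calls of *Ccl4* were kept under every alternative of the limma fit, with adjusted p up to 0.000361 for the *Ahr*-/- response, 0.007 for day 2 and 0.05 (rounded up) for the difference of responses. The lowest day 2 difference of *Ccl4*, 2.78, came with the *Gapdh* covariate.

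*Ccl5* encodes RANTES, a ligand of CCR1 and CCR3 that T cells, NK cells and stimulated epithelium release. Its signals were 8.71, 8.27 and 8.63 in IMQ-treated *Ahr*-/- skin and 8.22, 7.77 and 7.82 in IMQ-treated *Ahr*+/- skin, against 7.11, 7.68 and 7.35 in untreated *Ahr*-/- skin and 7.33, 6.63 and 7.23 in untreated *Ahr*+/- skin. Neither treated group overlapped its untreated group. The responses of *Ccl5* were 1.16 in *Ahr*-/- skin (adjusted p = 0.0022) and 0.88 in *Ahr*+/- skin (adjusted p = 0.0252), with a difference of 0.28 (95% interval -0.39 to 0.96, adjusted p = 0.68). On day 2 all 3 *Ahr*-/- arrays lay above the *Ahr*+/- arrays, by 0.60 on average, which did not pass (adjusted p = 0.145); it passed with array weights (0.73, adjusted p = 0.0262). The *Ahr*+/- call was lost without *Ahr*+/- untreated replicate 2 or any 1 array of IMQ-treated *Ahr*+/- skin (0.66 to 0.96, adjusted p = 0.0508 to 0.114), with array weights (0.72, adjusted p = 0.0503) and with the *Ahr*+/- arrays fitted by themselves (adjusted p = 0.0725).

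Of the CCR2 ligands, *Ccl2* was called higher after IMQ in both genotypes and *Ccl7* in neither, and no difference between the genotypes passed the test. *Ccl2* encodes MCP-1, the main signal that brings monocytes out of bone marrow and into tissue. In IMQ-treated skin it read 9.35, 8.94 and 10.06 in *Ahr*-/- mice and 9.01, 8.96 and 8.69 in *Ahr*+/- mice, and in untreated skin 7.52, 8.12 and 7.65 in *Ahr*-/- mice and 8.58, 6.82 and 6.58 in *Ahr*+/- mice. Both treated groups lay wholly above their untreated groups and overlapped each other. *Ccl2* was 1.68 higher after IMQ in *Ahr*-/- skin (SE 0.43, adjusted p = 0.0122) and 1.56 higher in *Ahr*+/- skin (SE 0.43, adjusted p = 0.0392); the difference of responses was 0.12 (95% interval -1.21 to 1.45, adjusted p = 0.941). The *Ahr*+/- call was lost without *Ahr*+/- untreated replicate 2 or 3 or any 1 array of IMQ-treated *Ahr*+/- skin (1.19 to 1.66, adjusted p = 0.075 to 0.148), with the *Gapdh* covariate (1.36, adjusted p = 0.0618) and with the *Ahr*+/- arrays fitted by themselves (adjusted p = 0.115). The *Ahr*-/- call of *Ccl2* was lost with *Ahr*-/- IMQ replicate 3 as the sole array of its group (2.29, adjusted p = 0.0527).

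*Ccl7*, which encodes MCP-3 and lies beside *Ccl2*, read 9.11, 8.84 and 10.08 in IMQ-treated *Ahr*-/- skin and 8.59, 9.01 and 8.05 in IMQ-treated *Ahr*+/- skin. Untreated arrays read 6.97, 8.30 and 7.81 in *Ahr*-/- skin and 8.85, 6.08 and 6.74 in *Ahr*+/- skin. The *Ahr*-/- groups did not overlap, while *Ahr*+/- untreated replicate 1 lay among the treated arrays. Neither response passed, at 1.65 in *Ahr*-/- skin (adjusted p = 0.057) and 1.33 in *Ahr*+/- skin (adjusted p = 0.189). Leaving out *Ahr*+/- untreated replicate 1 gave *Ccl7* an *Ahr*+/- response of 2.14, which passed (adjusted p = 0.00983), and the *Ahr*-/- response passed when arrays were centred on their medians (1.68, adjusted p = 0.0423), when arrays were weighted (1.31, adjusted p = 0.0389) and when the *Ahr*-/- arrays were fitted by themselves (adjusted p = 0.00655).

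*Ahr*+/- untreated replicate 1 was the highest array of its group for *Ccl2*, *Ccl3*, *Ccl5*, *Ccl7*, *Ccl20*, *Ccr1* and *Ccr2*. The mean of 10 monocyte and macrophage genes was also highest there, at 10.39 on replicate 1, against 8.68 on replicate 2 and 9.50 on replicate 3. The part of cell content in these spreads was not tested.

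*Ccl20* was called higher after IMQ in both genotypes and had its highest values in *Ahr*+/- skin. It encodes MIP-3 alpha, the chemokine ligand of CCR6, which keratinocytes release under IL-1, IL-17 and TNF. On day 2 of IMQ the signals of *Ccl20* were 9.64, 8.31 and 8.58 in *Ahr*-/- skin and 9.34, 11.04 and 10.35 in *Ahr*+/- skin. Without treatment they were 7.68, 6.88 and 7.75 in *Ahr*-/- skin and 7.51, 6.76 and 5.94 in *Ahr*+/- skin. In each genotype every treated array lay above every untreated one, and the treated groups overlapped through *Ahr*-/- replicate 1 and *Ahr*+/- replicate 1.

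*Ccl20* was 1.40 higher after IMQ in *Ahr*-/- mice (SE 0.48, adjusted p = 0.0468, 2.64-fold) and 3.51 higher in *Ahr*+/- mice (SE 0.48, adjusted p = 0.000809, 11.4-fold). The difference of responses, *Ahr*-/- minus *Ahr*+/-, was -2.11 on the log2 scale (95% interval -3.59 to -0.62, unadjusted p = 0.00911 from limma), which did not pass after adjustment over all genes (adjusted p = 0.14). The day 2 difference of -1.40 did not pass either (adjusted p = 0.122). Over the alternatives of the limma fit the adjusted p of the difference of responses ran from 0.0542 to 0.604. The *Ahr*+/- call of *Ccl20* was kept in all 16 alternatives of the limma fit, and the *Ahr*-/- call in 5 of 17; it was lost whichever of the 6 *Ahr*-/- arrays was left out (1.01 to 1.67, adjusted p = 0.0519 to 0.182).

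The CCR4 ligands *Ccl17* (TARC) and *Ccl22* (MDC), which dendritic cells release and which draw skin-homing and regulatory T cells, were not called in any comparison. *Ccl17* read between 5.93 and 6.15 in IMQ-treated *Ahr*-/- skin and between 5.90 and 6.35 in IMQ-treated *Ahr*+/- skin, while untreated skin gave 5.97 to 6.56 in *Ahr*-/- mice and 5.72 to 6.39 in *Ahr*+/- mice. All 4 groups overlapped. Its responses were -0.20 in *Ahr*-/- skin (95% interval -0.64 to 0.24) and 0.09 in *Ahr*+/- skin (95% interval -0.35 to 0.53).

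*Ccl22* read 5.85, 6.19 and 5.45 in IMQ-treated *Ahr*-/- skin and 6.0, 6.58 and 6.59 in IMQ-treated *Ahr*+/- skin. In untreated skin it read 6.48, 6.26 and 6.38 in *Ahr*-/- mice and 6.04, 5.86 and 6.34 in *Ahr*+/- mice. The treated *Ahr*-/- arrays all lay below the untreated ones, by a narrow margin. The *Ahr*-/- response was -0.54 (95% interval -1.01 to -0.08, adjusted p = 0.0774). The *Ahr*+/- response was 0.31 (95% interval -0.16 to 0.77, adjusted p = 0.42). They differed by -0.85 (95% interval -1.51 to -0.20, unadjusted p = 0.0151 from limma), which did not pass (adjusted p = 0.173). The day 2 difference of -0.56 (95% interval -1.03 to -0.10, unadjusted p = 0.0215 from limma) did not pass either (adjusted p = 0.16). *Ccl22* in *Ahr*-/- skin was called lower with the *Gapdh* covariate (-0.95, adjusted p = 0.0184) and when *Ahr*-/- IMQ replicate 2 was dropped (-0.72, adjusted p = 0.0384). With array weights it was called lower in *Ahr*-/- than in *Ahr*+/- skin at day 2 (-0.64, adjusted p = 0.0262).

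**Figure D2:**
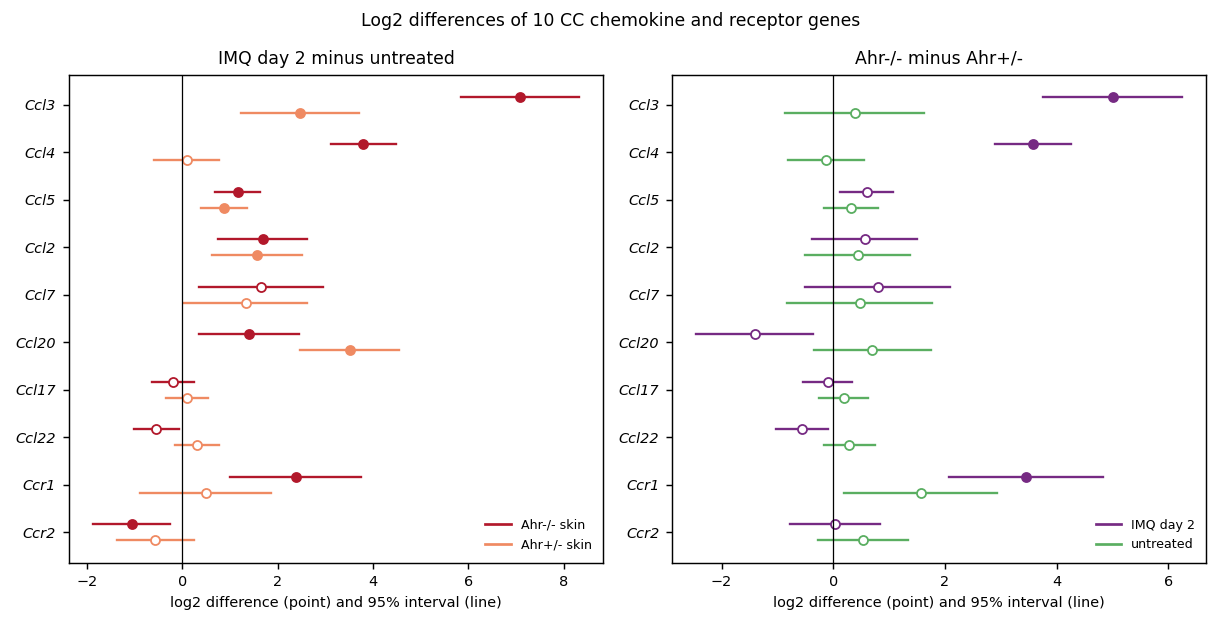
Log2 difference (x axis, point) with its 95% interval (line) for each gene (y axis). On the left is IMQ day 2 minus untreated, *Ahr*-/- skin above *Ahr*+/- skin; on the right *Ahr*-/- minus *Ahr*+/- skin, IMQ day 2 above untreated. Filled points were called; *Ccl3* and *Ccl4* responded by 7.08 and 3.80 in *Ahr*-/- skin, against 2.46 and 0.09 in *Ahr*+/- skin, and *Ccl20* by 1.40, against 3.51.

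The receptor genes went in opposite directions in *Ahr*-/- skin, *Ccr1* higher after IMQ and *Ccr2* lower. *Ccr1* encodes a receptor of CCL3, CCL5 and CCL7 that mouse neutrophils, monocytes and macrophages carry. Its signals were 11.06, 10.74 and 10.86 in IMQ-treated *Ahr*-/- skin, against 8.59, 7.25 and 6.46 in IMQ-treated *Ahr*+/- skin. Untreated skin gave 8.24, 8.88 and 8.41 in *Ahr*-/- mice and 8.55, 5.51 and 6.78 in *Ahr*+/- mice. The treated *Ahr*-/- arrays agreed within 0.32 and exceeded all others, while both *Ahr*+/- groups spread widely.

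*Ccr1* was 2.38 higher after IMQ in *Ahr*-/- skin (SE 0.63, adjusted p = 0.0147) and 3.45 higher in *Ahr*-/- than in *Ahr*+/- skin at day 2 (SE 0.63, adjusted p = 0.0105, 10.9-fold). In *Ahr*+/- skin its response was 0.49 (95% interval -0.89 to 1.86, adjusted p = 0.704). The difference of responses, 1.89, did not pass (95% interval -0.05 to 3.83, adjusted p = 0.3). The second probe set of *Ccr1* went the same way, by 3.99 in the *Ahr*-/- response, 4.02 on day 2 and 3.43 for the difference of responses, the last with an adjusted p of 0.0720 over all probe sets in limma. Leaving out *Ahr*-/- untreated replicate 1 or *Ahr*-/- IMQ replicate 1 ended the *Ahr*-/- call of *Ccr1* (2.24, adjusted p = 0.0538, and 2.29, adjusted p = 0.0501). Dropping replicate 2 or 3 of treated *Ahr*+/- skin or replicate 2 of treated *Ahr*-/- skin ended the day 2 call (3.36, 2.97 and 3.53, adjusted p = 0.0575, 0.0625 and 0.0513). Both calls were lost with the *Gapdh* covariate (adjusted p = 0.0851 and 0.227) and with *Ahr*-/- IMQ replicate 3 as the sole array of its group (adjusted p = 0.196 and 0.283).

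*Ccr2* encodes the receptor of CCL2 and CCL7 that marks classical monocytes. It read 8.75, 8.26 and 8.22 in IMQ-treated *Ahr*-/- skin and 8.57, 8.06 and 8.49 in IMQ-treated *Ahr*+/- skin, against 9.51, 9.66 and 9.27 in untreated *Ahr*-/- and 9.92, 7.94 and 8.96 in untreated *Ahr*+/- skin. The *Ahr*-/- groups did not overlap and the *Ahr*+/- groups did. *Ccr2* fell by 1.07 after IMQ in *Ahr*-/- skin (SE 0.37, adjusted p = 0.0489) and differed by -0.57 in *Ahr*+/- skin (adjusted p = 0.386). The *Ahr*-/- call of *Ccr2* was kept in 6 of 17 alternatives and lost whichever of the 6 *Ahr*-/- arrays was left out (-1.24 to -0.97, adjusted p = 0.0597 to 0.139). Without *Ahr*+/- untreated replicate 2 the *Ahr*+/- response was -1.07 and was called (adjusted p = 0.0194). The probe sets of *Ccr2* disagreed: in *Ahr*-/- skin 3 of the 4 were lower after IMQ, and the fourth was 0.47 higher (adjusted p = 0.0198 over all probe sets in limma), short of 1.5-fold. On day 2 that set was 0.63 higher in *Ahr*-/- than in *Ahr*+/- mice and passed both limits (adjusted p = 0.0235), while the main set of *Ccr2* differed by 0.04 (adjusted p = 0.963).

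Between the genotypes on day 2, 3 of the 10 genes were called higher in *Ahr*-/- skin and 0 lower, where 2.12% of all genes were called higher and 1.86% lower. The arrays of IMQ-treated *Ahr*-/- skin lay wholly above those of *Ahr*+/- skin for 4 of the 10 genes (*Ccl3*, *Ccl4*, *Ccl5* and *Ccr1*), as they did for 18.0% of all genes, and wholly below for 0, against 15% of all genes. In untreated skin limma called 0 of the 10 genes, where it called 0.00550% of all genes higher and 0% lower; 1 of the 10, *Ccr1*, had an unadjusted p under 0.05 (1.56 higher in *Ahr*-/- skin, adjusted p = 0.738), and the rank product test called 0 (0.324% of all genes). In untreated skin 0 of the 10 genes were without overlap between the genotypes, where 5.03% of all genes lay wholly higher in *Ahr*-/- skin and 3.78% wholly lower. Of the 10 differences 9 lay above 0, with a median of 0.41 against 0.02 over all genes. Some other lists lay to the same side. Above 0 were 10 of 10 monocyte and macrophage genes (median 0.41), 7 of 7 endothelial genes (0.37) and 20 of 22 other CC genes (0.21). Medians were smaller for muscle (0.17, 6 of 7 above 0), dendritic cell (0.14, 7 of 9) and keratinocyte genes (0.09, 6 of 7). They were 0.08 for T cell genes (5 of 7) and 0.02 for neutrophil genes (5 of 9). Growth phase hair follicle genes lay below 0 in 11 of 11 cases (median -3.27). The part of cell content and of untreated *Ahr*+/- replicate 2 in the shift was not tested. These comparisons share arrays with the responses to IMQ and are not independent of them.

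The mean signal of neutrophil genes was, like *Ccl3*, *Ccl4* and *Ccr1*, highest on the arrays of IMQ-treated *Ahr*-/- skin. Of 12 neutrophil marker genes 9 were measured, among them *Cxcr2*, *Csf3r*, *Il1r2* and *Mmp8*, and *Ly6g*, *Retnlg* and *Fpr1* were not. After IMQ all 9 were called higher in *Ahr*-/- skin and 5 in *Ahr*+/- skin, and on day 2 all 9 read higher in *Ahr*-/- than in *Ahr*+/- skin on average, 8 of them by the test. Their mean lay between 10.67 and 10.86 in IMQ-treated *Ahr*-/- skin, against 8.84, 7.53 and 7.14 on replicates 1, 2 and 3 of IMQ-treated *Ahr*+/- skin, and between 5.96 and 6.22 in untreated skin of either genotype. *Ccl3*, *Ccl4* and *Ccr1* ranked the treated *Ahr*+/- arrays in that same order. Outside the treated groups *Ccr1* did not follow the neutrophil mean: it read 8.24 to 8.88 in untreated *Ahr*-/- skin, with that mean at 5.96 to 6.22, and 5.51 to 8.55 in untreated *Ahr*+/- skin, with that mean at 5.96 to 6.09. The part of neutrophil content in the 3 genes' differences was not tested.

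Of 10 measured monocyte and macrophage genes 1 was called higher and 1 lower after IMQ in *Ahr*-/- skin and 3 higher and 0 lower in *Ahr*+/- skin, and their mean was 10.28 to 10.95 in IMQ-treated *Ahr*-/- skin and 10.30 to 10.79 in IMQ-treated *Ahr*+/- skin. Between the genotypes on day 2, 1 of the 10 was called lower in *Ahr*-/- skin and 1 higher. The lower was *Adgre1*, which encodes the macrophage marker F4/80 (log2 difference -1.60, adjusted p = 0.0119). The higher was *Cd14* (3.45, adjusted p = 0.000428). The rest were not called, among them *Csf1r* (-0.10) and *Cd68* (0.04). After IMQ 1 of the 7 keratinocyte genes was called higher and 3 lower in *Ahr*-/- skin, and 2 higher and 1 lower in *Ahr*+/- skin. They averaged 12.01 to 12.47 in IMQ-treated *Ahr*-/- skin and 12.90 to 13.60 in IMQ-treated *Ahr*+/- skin. The suprabasal keratin genes *Krt10* and *Krt1* were lower in *Ahr*-/- skin on day 2. The log2 difference of *Krt10* was -2.71 (adjusted p = 0.00593), that of *Krt1* -2.79 (adjusted p = 0.00616). The rest of the 7 keratinocyte genes were not called on day 2. Their differences were -1.58 for *Krt15*, -0.02 for *Krt14*, -0.18 for *Krt5*, -0.30 for *Trp63* and -0.21 for *Perp*. In each treated group replicate 1 had the lowest keratinocyte mean, and it had the highest *Ccl20* of the group in *Ahr*-/- skin (9.64) and the lowest in *Ahr*+/- skin (9.34). T cell genes averaged 6.63 to 7.02 in IMQ-treated *Ahr*-/- skin and 6.62 to 6.99 in IMQ-treated *Ahr*+/- skin, and dendritic cell genes 7.30 to 7.49 in IMQ-treated *Ahr*-/- skin and 7.52 to 7.85 in IMQ-treated *Ahr*+/- skin. After IMQ, 3 of 7 T cell genes were called lower in *Ahr*-/- and 2 in *Ahr*+/- skin. Of 9 dendritic cell genes 4 were called lower in *Ahr*-/- and 1 in *Ahr*+/- skin. The 1 called higher in each genotype was *Ccr7*, which is also on the list of other CC genes. Of 7 endothelial genes 2 were called higher in *Ahr*-/- and 1 in *Ahr*+/- skin. On day 2 the endothelial mean was 8.34 to 8.47 in *Ahr*-/- skin and 7.92 to 7.96 in *Ahr*+/- skin, and 1 of the 7 genes was called higher in *Ahr*-/- skin. In the responses to IMQ, 2 of 7 muscle genes were called lower in *Ahr*-/- skin and 0 in *Ahr*+/- skin. Of 11 growth phase hair follicle genes 5 were called lower after IMQ in *Ahr*+/- skin and 0 in *Ahr*-/- skin. Between the genotypes on day 2, 0 genes of either list were called. The part of these cell types in the chemokine signals was not tested.

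**Figure D3:**
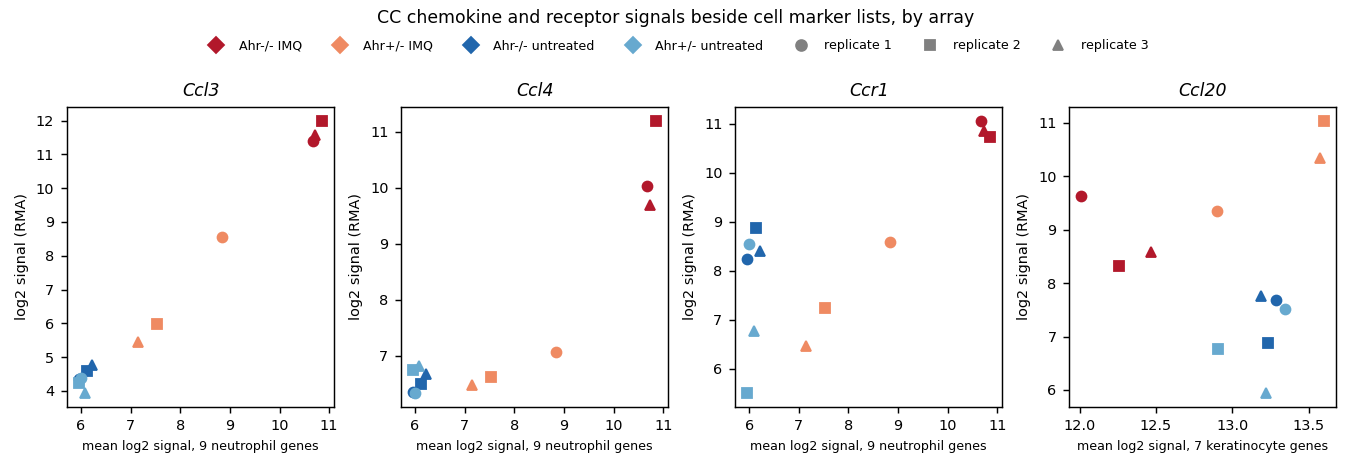
Log2 signal of *Ccl3*, *Ccl4* and *Ccr1* (y axes) against the mean log2 signal of 9 neutrophil genes, and of *Ccl20* against that of 7 keratinocyte genes (x axes); each point is an array, coloured by group and shaped by replicate number. *Ccl3* and *Ccl4* rise with the neutrophil mean through the treated *Ahr*+/- arrays, to 8.54 and 7.08 at a mean of 8.84. Both exceed 9 only in IMQ-treated *Ahr*-/- skin.

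The genes whose signals ran most like those of *Ccl3* over the 12 arrays were *Clec4e* (Pearson r = 0.996), which encodes the myeloid receptor Mincle and is itself on the neutrophil list, *Cd300lf* (0.993) and *Il1b* (0.992), which encodes IL-1 beta. Those most like *Ccl4* were *Cd177* (0.993), a neutrophil surface protein gene, *Osm* (0.990), which encodes oncostatin M, and *Pram1* (0.987). *Ccr1* was followed by *Cers2* (0.970), *Mmp9* (0.955), which is also on the neutrophil list, and *C5ar1* (0.955), the gene of the C5a receptor. *Ccl20* had other company, namely *Sox7* (0.976), *Ephx3* (0.955), an epidermal epoxide hydrolase gene, and *Hsd17b2* (0.951). *Ccl2* and *Ccl7* followed each other with r = 0.952, and *Ccl3* and *Ccl4* with r = 0.933, while *Ccl20* and *Ccl4* reached 0.186. These values describe 12 arrays that fall into 4 groups and share one normalization.

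For the other genes, the closest were *Bst1* (0.964) and *Cd300ld* (0.963) for *Ccl2*, *Skap2* (0.956) for *Ccl7*, *Ms4a6d* (0.972) for *Ccl5* and *Antxr1* (0.948) for *Ccr2*. For the dim *Ccl17* and *Ccl22* they were *Cldn22* (0.924) and *Miga2* (0.932).

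Of 26 other CC chemokine, receptor and atypical receptor genes 22 were measured, and their median response was 0.05 in *Ahr*-/- skin and 0.02 in *Ahr*+/- skin. In *Ahr*-/- skin 3 were called higher and 6 lower after IMQ, and in *Ahr*+/- skin 2 higher and 2 lower. *Ccl24*, an eotaxin gene, fell in both genotypes, to 6.52, 6.66 and 6.82 in IMQ-treated *Ahr*-/- skin, against 8.30, 8.02 and 8.15 untreated (adjusted p = 0.000857), and by a log2 difference of -1.58 in *Ahr*+/- skin (adjusted p = 0.00178). *Ccl27a*, which encodes the keratinocyte chemokine CTACK, fell by 1.23 on the log2 scale in *Ahr*-/- mice (adjusted p = 0.000199), and its difference in *Ahr*+/- mice was -0.67 (adjusted p = 0.0205). *Ccr7*, the receptor that takes dendritic cells to lymph nodes, rose by 0.93 (*Ahr*-/-, adjusted p = 0.0147) and by 1.37 (*Ahr*+/-, adjusted p = 0.00475).

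Other calls among the 22 genes were made in the response of 1 genotype. In *Ahr*-/- skin *Ccl8*, an MCP gene, was lower after IMQ by a log2 difference of -1.17 (adjusted p = 0.0202) and *Ccl11*, which encodes eotaxin, by -1.65 (adjusted p = 0.0213). Of the atypical receptors, which take up chemokines without signalling through G proteins, *Ackr4* changed by -2.00 (adjusted p = 0.000161) and *Ackr2* by -0.66 (adjusted p = 0.0405) in *Ahr*-/- skin, and *Ackr1*, which venular endothelium carries, rose by 0.81 (adjusted p = 0.022). *Ccr9* rose in *Ahr*+/- skin by 1.03 (adjusted p = 0.00808). None of the 22 passed the test of the difference between the genotypes' responses, the lowest adjusted p being that of *Ccrl2* (0.0718). *Ccr6*, the receptor of CCL20, read 5.95, 6.44 and 5.94 in IMQ-treated *Ahr*-/- skin and 6.04, 5.64 and 6.04 in IMQ-treated *Ahr*+/- skin and was called in no comparison.

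*Ccrl2*, which encodes a chemerin-binding relative of the chemokine receptors, was the 1 gene of the 22 called between the genotypes on day 2. It read 7.71, 7.95 and 7.99 in IMQ-treated *Ahr*-/- skin and 6.78, 6.28 and 6.54 in IMQ-treated *Ahr*+/- skin, and the groups did not overlap. The difference of *Ccrl2* was 1.35 (SE 0.18, adjusted p = 0.00221), and its response was 1.26 in *Ahr*-/- skin (adjusted p = 0.000419) and 0.21 in *Ahr*+/- skin (adjusted p = 0.552).

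**Figure D4:**
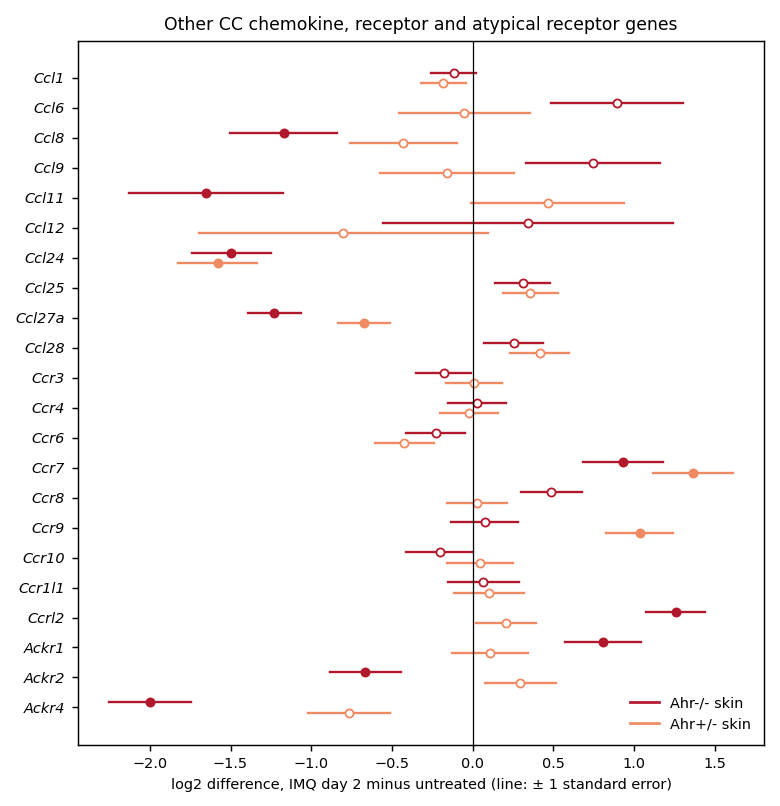
Log2 difference between IMQ day 2 and untreated skin (x axis) for the 22 other CC chemokine and receptor genes (y axis), *Ahr*-/- skin above *Ahr*+/- skin; lines are ± 1 standard error and filled points were called. *Ackr4* has the lowest value, -2.00 in *Ahr*-/- skin, and *Ccl24* lies near -1.5 in both genotypes.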

How the data were processed

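Skin RNA of 12 samples, 3 in each of 4 groups, had been measured on Affymetrix mouse expression arrays. The authors deposited log2 signals per probe set, calculated by RMA (R package affy; no version stated in the sources used here). This method subtracts background, equalizes the distributions of the arrays and summarizes the probes of a set, which can narrow the fold changes of dim and bright probes. Array medians lay between 7.38 and 7.56, and the number of arrays limits the precision.

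Of 45101 probe sets, 64 controls, 932 with several genes and 9160 with no symbol were left out, and the other 34945 gave 18193 genes, dim ones included. A model of the 4 group means was made in limma 3.58.1 in R 4.3.3 (8 residual and 4.44 prior degrees of freedom), with Benjamini-Hochberg adjustment across every gene, separately in each of 5 comparisons. P-values weigh a difference of group means against the spread between arrays of a group, pooled over the 4 groups. The fit was also run on simulated data with independent noise and few changed genes, which does not show how well it does on these arrays.

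The 10 members, the lists of other CC genes and of cell markers, and the rules for naming genes were chosen with earlier results of these data known. All 10 members were named in every comparison, with the other CC genes called in at least 1, the 3 genes most like each member by Pearson correlation and the first 4 measured markers of a list. *Csf1r*, *Adgre1*, *Cd68*, *Cd14*, *Krt10*, *Krt1*, *Krt14*, *Krt5* and *Ccr6* come from these lists, the last named after its values were seen. *Krt15*, *Trp63* and *Perp* of the keratinocyte list were also named after their values were seen. Alternatives were no fold minimum, all probe sets, their mean, a mean signal of at least 5, median centring, weights for arrays, robust priors with a variance trend, a block for the replicate number, the compared groups fitted by themselves, the *Gapdh* 3′/5′ difference as a covariate, *Ahr*-/- IMQ replicate 3 as the sole array of its group, each array left out, and the study's own criterion, a rank product (written in Python 3.11.15, 100 permutations) cut at 0.01 of its estimated proportion of false positives. Promoter windows and coordinates are those of RefSeq, GRCm38.p6.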

Additional observations from a re-analysis of the deposited data

Results flagged for a closer look

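The response to IMQ of *Ccl3* was larger in *Ahr*-/- than in *Ahr*+/- skin by a log2 value of 4.62 (SE 0.81, adjusted p = 0.0207 from limma). Its signals were 11.40 to 11.99 in IMQ-treated *Ahr*-/- skin, 5.43 to 8.54 in IMQ-treated *Ahr*+/- skin and 3.94 to 4.76 without treatment. That of *Ccl4* was larger by 3.7 (SE 0.44, adjusted p = 0.00291), with signals of 9.69 to 11.20 in IMQ-treated *Ahr*-/- skin and 6.34 to 7.08 in the other 3 groups. Both were singled out because the test of the difference between the genotypes' responses passed.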

How the results depend on the processing

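*Ccl4* kept its 3 calls under every alternative of the limma fit, and *Ccl3* and *Ccl5* their calls in the *Ahr*-/- response. Of the members' values under alternatives, 824 kept their direction and their side of the threshold, 62 lost a call, 9 gained one and 25 changed sign, all 25 in comparisons where the gene was not called. With *Ahr*-/- IMQ replicate 3 as the sole array of its group, the *Ahr*-/- response was 6.99 for *Ccl3* and 3.18 for *Ccl4*. Fewer arrays enter that fit, the other groups alone supply its spread, and the lone array is assumed to vary like them. The *Gapdh* covariate left 1 call on day 2 and 1 for the difference of responses, array weights gave 5 on day 2, the fit to the groups compared alone 1 in the *Ahr*+/- response (4 reported), and the rank product 3 in the *Ahr*-/- and 2 in the *Ahr*+/- response. The cause of these changes was not tested. With 1 array left out, calls numbered 4 to 6 in the *Ahr*-/- response, 2 to 5 in the *Ahr*+/- response, 2 to 3 on day 2, 0 without treatment and 1 to 2 for the difference of responses. Correlations of the arrays' deviations from their group means ran from -0.184 to 0.316 for same replicate numbers and from -0.362 to 0.243 for different ones. In the *Ahr*-/- response they were 0.064 to 0.155 and -0.176 to 0.056. With groups of 3 these values cannot settle whether the numbers pair the arrays. With the replicate block, 6 genes were called in the *Ahr*-/- response, *Ccl20* being lost (adjusted p = 0.062), and the other counts did not change.

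Signs changed as follows. Array weights gave -0.054 for *Ccl4* and -0.12 for *Ccl17* in the *Ahr*+/- response, -0.14 for *Ccl17* in untreated skin, and -0.35, -0.15 and 0.088 for *Ccl2*, *Ccl7* and *Ccl17* in the difference of responses. *Ccr2* on day 2 was -0.0062 from the mean of all probe sets, -0.066 with the *Gapdh* covariate and -0.15 with *Ahr*-/- IMQ replicate 3 as the sole array of its group. With 1 array left out, the *Ahr*+/- response ran from -0.082 to 0.22 for *Ccl4*, from -0.066 to 0.27 for *Ccl17* and from -0.23 to 1.29 for *Ccr1*. The day 2 difference ran from -0.21 to 0.017 for *Ccl17* and from -0.13 to 0.14 for *Ccr2*, and the untreated difference of *Ccl7* from -0.10 to 1.29. The difference of responses ran from -0.50 to 0.49 for *Ccl2*, from -0.49 to 0.89 for *Ccl7* and from -0.99 to 0.0005 for *Ccr2*.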
